A study of Mus musculus with 7 samples.

Results

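Heat shock proteins and their co-chaperones were followed by gene symbol in cultured LLC1 cells, a mouse Lewis lung carcinoma line, after knockdown of the RNA helicase gene Ddx54. The genes taken were those of the HSP70 and HSP110, HSP90, HSP60, HSP10 and small heat shock protein families, the DNAJ (J protein) families A, B and C, the BAG proteins, the heat shock factors Hsf1 and Hsf2, and the numbered subunits of the cytosolic chaperonin CCT. Of the 24419 genes in the count table, 88 had a matching symbol, and 85 were members after the endoplasmic reticulum chaperones Hspa5, Dnajc3 and Dnajb11 were set aside. Polyadenylated RNA was sequenced from 3 libraries of cells carrying an shRNA against Ddx54 and from 4 wild-type libraries, all grown in DMEM with 10% FBS. No control construct is named for the wild-type cells and no sequence for the shRNA, so the knockdown cannot be told apart from the presence of an shRNA. The replicates are numbered but not described as separate cultures, and p-values therefore measure the spread between these 7 libraries, which may be technical.

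Heat shock proteins are molecular chaperones that bind unfolded or partly folded proteins. HSP70 works through a cycle of ATP hydrolysis: J proteins deliver clients and trigger hydrolysis, and nucleotide exchange factors of the HSP110 and BAG families release the client. HSP90 receives partly folded kinases and receptors from HSP70, the barrel-shaped chaperonins HSP60 with HSP10 in mitochondria and CCT in the cytosol fold enclosed clients, and HSF1 is the transcription factor that induces many of these genes when proteins misfold.

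The libraries held 14987324 to 18673395 counts each. Levels are given in CPM, counts divided by library size and scaled by TMM factors that correct for library composition, with mean ± SD over n = 3 knockdown and n = 4 wild-type libraries. Ddx54 itself had 45.9, 39.2 and 45.8 CPM in knockdown cells, against 80.4, 82.5, 78.6 and 83.1 CPM in wild-type cells, and it was lower in every knockdown library (log2 fold change -0.90, SE 0.096, edgeR adjusted p = 6.55e-09). The 45S ribosomal RNA gene Rn45s took 7.96% to 9.07% of counts in knockdown and 10.7% to 12.5% in wild-type libraries. Of markers of other cells, 1 of 11 leukocyte genes rose (Cd14; 2 tested), with a summed level of 26.3 to 30.5 CPM in knockdown against 19.7 to 22.9 CPM in wild-type cells, and Cd3e and Nkg7 had no count. Of 8 epithelial markers, which may mark the carcinoma line itself, 3 were tested and 2 fell (Krt18 and Krt19). The 8 summed to 149 to 168 CPM in knockdown against 239 to 249 CPM in wild-type cells. Epcam and Cdh1, which define epithelium, had at most 0.196 CPM in any library, and Nkx2-1 had no count. Fibroblast markers summed to 1059 to 1128 CPM in knockdown and 1047 to 1238 CPM in wild-type cells, nearly all Col3a1. Of 10 such markers, 6 were tested and 0 passed. Nearest to the threshold, in opposite directions, were Acta2 (log2 fold change -1.23, edgeR adjusted p = 0.0542) and Pdgfra (0.37, 0.0578). The part of Rn45s and of these markers in the results was not tested, and in bulk RNA fewer cells of a type cannot be told apart from less RNA per cell.

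Of the 85 members, 68 had enough counts to be tested, and 26 passed an adjusted p of 0.05 in edgeR's quasi-likelihood test over all 11594 tested genes: 15 rose and 11 fell in knockdown cells. That is 38.2% of the tested members, against 29.4% of all tested genes. The 22.1% of members that rose stand beside 14.1% of all tested genes, and the 16.2% that fell beside 15.3%, a share near the background. The median log2 fold change of the tested members was 0.07, with a range of -1.82 to 1.18, against 0.001 for all tested genes. Between-group ranges did not overlap for 38.2% of the tested members and for 35.1% of all tested genes. The members were well expressed: 57 of 68 reached a wild-type mean of 10 CPM, against 8055 of all 11594 tested genes. The called shares above were not matched for level, and genes with more counts are easier to call. Just inside the threshold lay Bag3 (adjusted p = 0.0453) and Hsp90aa1 (0.0427), and just outside it Dnajc21 (0.058) and Cct7 (0.0728).

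**Figure D1:**
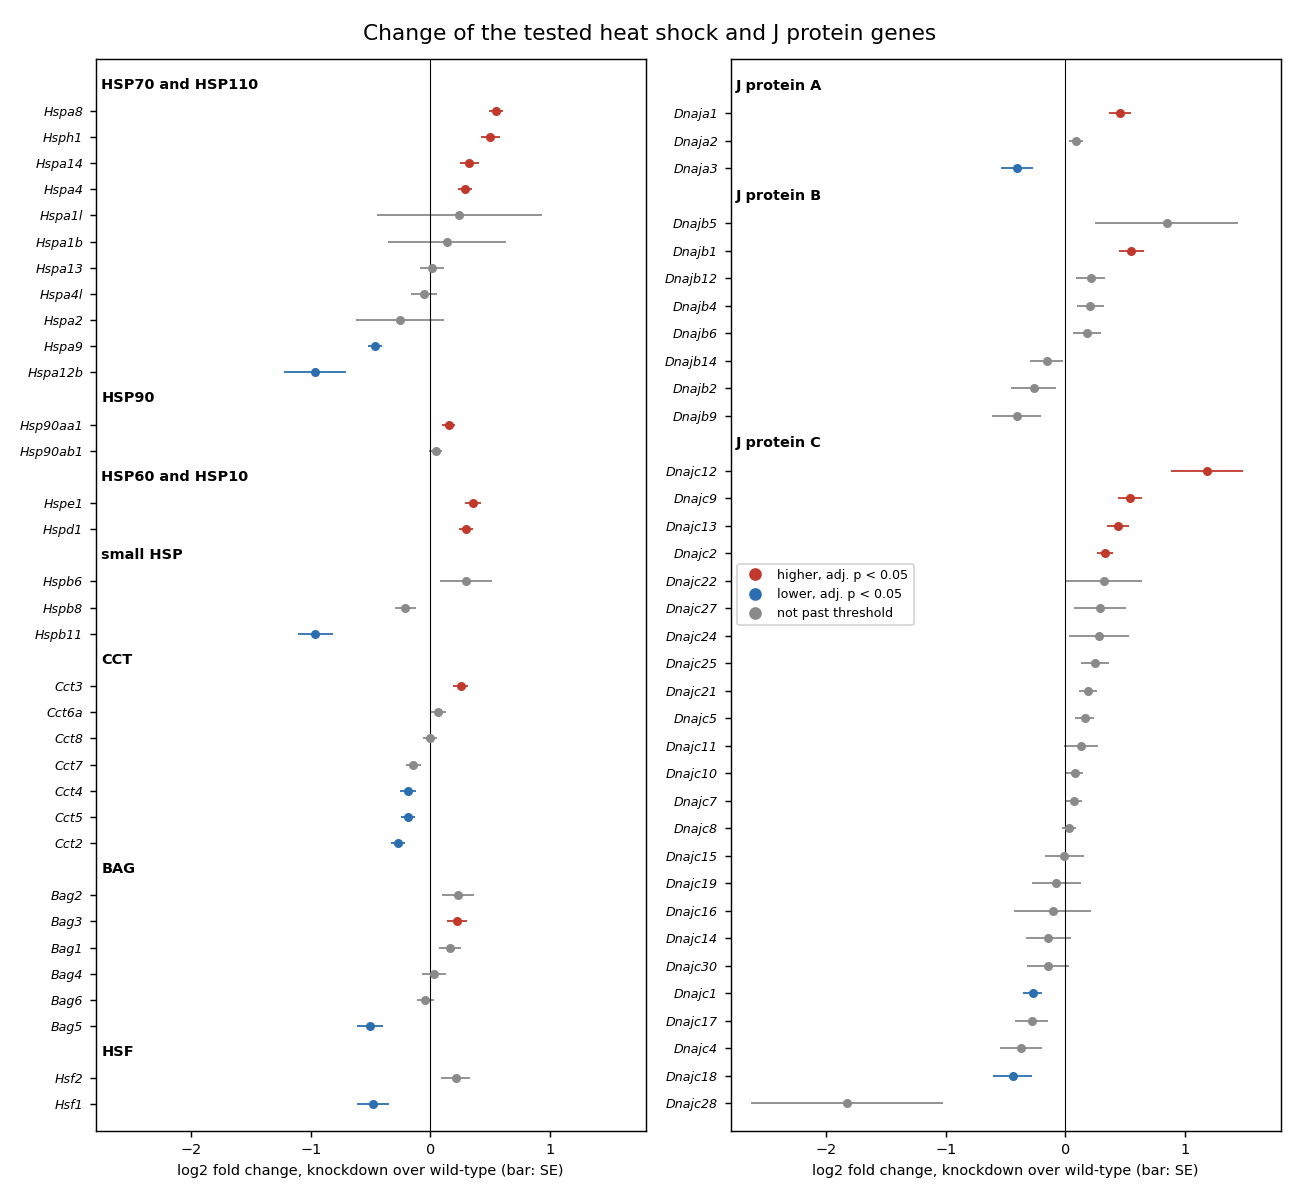
Log2 fold change of each of the 68 tested members (horizontal axis, knockdown over wild-type), grouped by family; points are edgeR estimates, bars 1 SE, red higher and blue lower at an adjusted p under 0.05, grey not past it. Some families held calls in both directions: 4 of 11 tested HSP70 and HSP110 genes rose and 2 fell, and 1 of 7 tested CCT genes rose and 3 fell. Among all tested genes, 14.1% rose and 15.3% fell. Leaving out 1 library, the count of CCT genes that fell was 1 to 3.

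**Figure D2:**
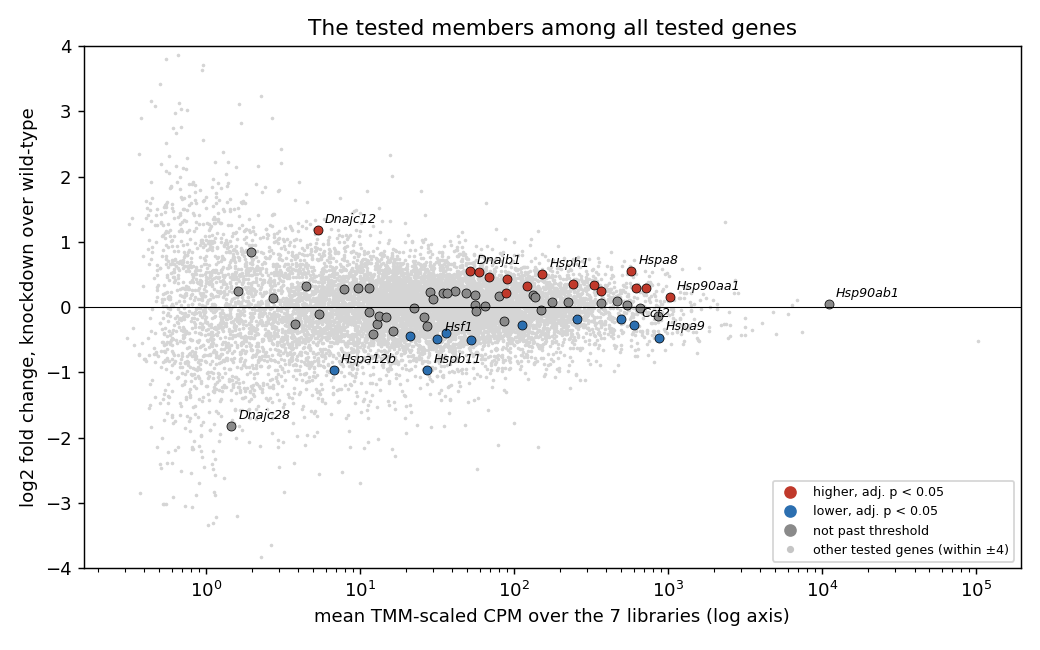
Log2 fold change (vertical axis, knockdown over wild-type) against mean level over the 7 libraries (horizontal log axis, CPM) for the members, coloured by call, among all tested genes in grey. Hsp90ab1 stands far to the right of the other members, with means of 11278 CPM in knockdown and 10953 CPM in wild-type cells, and Dnajc12 and Dnajc28 mark the extremes of fold change at 1.18 and -1.82.

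The constitutive cytosolic HSP70 gene and several of its partners were higher in knockdown cells, while other partners did not pass. Hspa8, which encodes the housekeeping HSP70 (HSC70), had 725, 711 and 686 CPM in knockdown cells, against 493, 461, 494 and 491 CPM in wild-type cells. Every knockdown library lay above every wild-type library, with means of 708 ± 19.6 and 485 ± 15.8 CPM (log2 fold change 0.55, SE 0.058, edgeR adjusted p = 5.58e-09). Hspa8 lies on chromosome 9 at 40800984 to 40810087 of GRCm38, plus strand, and 6.09% of its exon length overlaps small nucleolar RNA genes. Of other members that passed, Dnaja1 (10.8%), Dnaja3 (8%), Dnajc1 (6.43%), Hspe1 (7.6%) and Hspa14 (7.91%) also share exon length with another gene, so part of their reads may be assigned to either.

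Both widely expressed HSP110 genes, whose products exchange nucleotide on HSP70, also rose. Hsph1 had 188, 179 and 185 CPM in knockdown cells, against 146, 108, 129 and 137 CPM in wild-type cells (log2 fold change 0.50, SE 0.080, adjusted p = 9.17e-06). Hspa4 had 730.2, 683 and 678 CPM in knockdown cells, against 565, 539, 585 and 594 CPM in wild-type cells (0.29, SE 0.059, adjusted p = 0.00028). The groups were separate for both genes. The third member of that family, Hspa4l, averaged 55.3 ± 4.51 CPM in knockdown and 57.4 ± 8.84 CPM in wild-type cells, with overlapping groups (log2 fold change -0.06, SE 0.11, adjusted p = 0.76).

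Of the J proteins that serve cytosolic HSP70, Dnajb1, the classical stress-inducible HSP40, had 63.9, 57.3 and 68.3 CPM in knockdown cells, against 40.4, 44.0, 44.3 and 43.4 CPM in wild-type cells (log2 fold change 0.55, SE 0.10, adjusted p = 9.51e-05). Dnaja1, a farnesylated type A J protein, had 86.6, 73.3 and 86.9 CPM in knockdown cells, against 59.8, 58.0, 57.6 and 63.6 CPM in wild-type cells (0.46, SE 0.093, adjusted p = 0.000229). Both were higher in all 3 knockdown libraries than in any wild-type library. Its relative Dnaja2 was more abundant, at 485 ± 16.6 CPM in knockdown and 457 ± 7.68 CPM in wild-type cells, and did not pass (0.09, adjusted p = 0.299).

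The strictly heat-inducible HSP70 genes were low in both groups. Hspa1b averaged 2.87 ± 0.569 CPM in knockdown and 2.60 ± 1.54 CPM in wild-type cells (log2 fold change 0.14, SE 0.50, adjusted p = 0.872). Hspa1a had 0.119, 1.14 and 0.195 CPM in knockdown cells, against 0.272, 0.272, 0 and 0.710 CPM in wild-type cells, 47 counts in all, and was not tested. The floor of 3 counts was worth 0.161 to 0.2 CPM per library, so Hspa1a lay near it and Hspa1b above it. These genes are near-identical copies, and their counts are uncertain because the handling of reads that match both is not given in the sources used here. Hspa1l, a testis-enriched relative, is uncertain too, since 71.9% of its exon length overlaps Gm10501.

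Of the 6 BAG genes, 1 rose and 1 fell, beside 14.1% higher and 15.3% lower among all tested genes. Bag3, an exchange factor that links HSP70 to selective autophagy and is a known HSF1 target, had 103, 101 and 88.0 CPM in knockdown cells, against 86.4, 80.4, 78.0 and 88.0 CPM in wild-type cells. Its groups met at 88.0 CPM, and its call was marginal (log2 fold change 0.22, SE 0.085, edgeR adjusted p = 0.0453): it was lost in 7 of 14 alternative settings (adjusted p = 0.0504 to 0.192), among them upper-quartile scaling, limma-voom, and leaving out knockdown replicate 1 or 2 or wild-type replicate 2 or 3. Bag5, another HSP70-binding exchange factor, had 39.9, 45.6 and 41.3 CPM in knockdown cells, against 58.6, 56.4, 66.7 and 58.3 CPM in wild-type cells, a clear separation in the other direction (log2 fold change -0.51, SE 0.11, edgeR adjusted p = 0.00037). The other 4 BAG genes did not pass, with log2 fold changes of -0.04 for Bag6, 0.03 for Bag4, 0.17 for Bag1 and 0.23 for Bag2.

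HSF1's own transcript was lower in knockdown cells, while chaperone genes were mixed. Hspa8, Hsph1, Dnajb1, Dnaja1, Hspd1 and Hspe1 were higher, and Hsp90aa1 and Bag3 marginally so. Hspa1b, Hsp90ab1, Hspa4l and Hspb8 did not pass. Hsf1 had 25.2, 27.3 and 25.3 CPM in knockdown cells, against 44.5, 32.6, 34.1 and 33.7 CPM in wild-type cells. The groups were separate (log2 fold change -0.48, SE 0.13, edgeR adjusted p = 0.00583), and the call held in all 14 alternative settings. It rested in part on wild-type replicate 1, the highest library: without it the log2 fold change was -0.37 and the adjusted p 0.0415. Hsf2, a second heat shock factor, averaged 40.2 ± 4.14 CPM in knockdown and 34.7 ± 3.58 CPM in wild-type cells and did not pass (0.21, adjusted p = 0.215). Transcript levels do not report HSF1 activity, which is set largely by the protein's trimerization and modification.

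**Figure D3:**
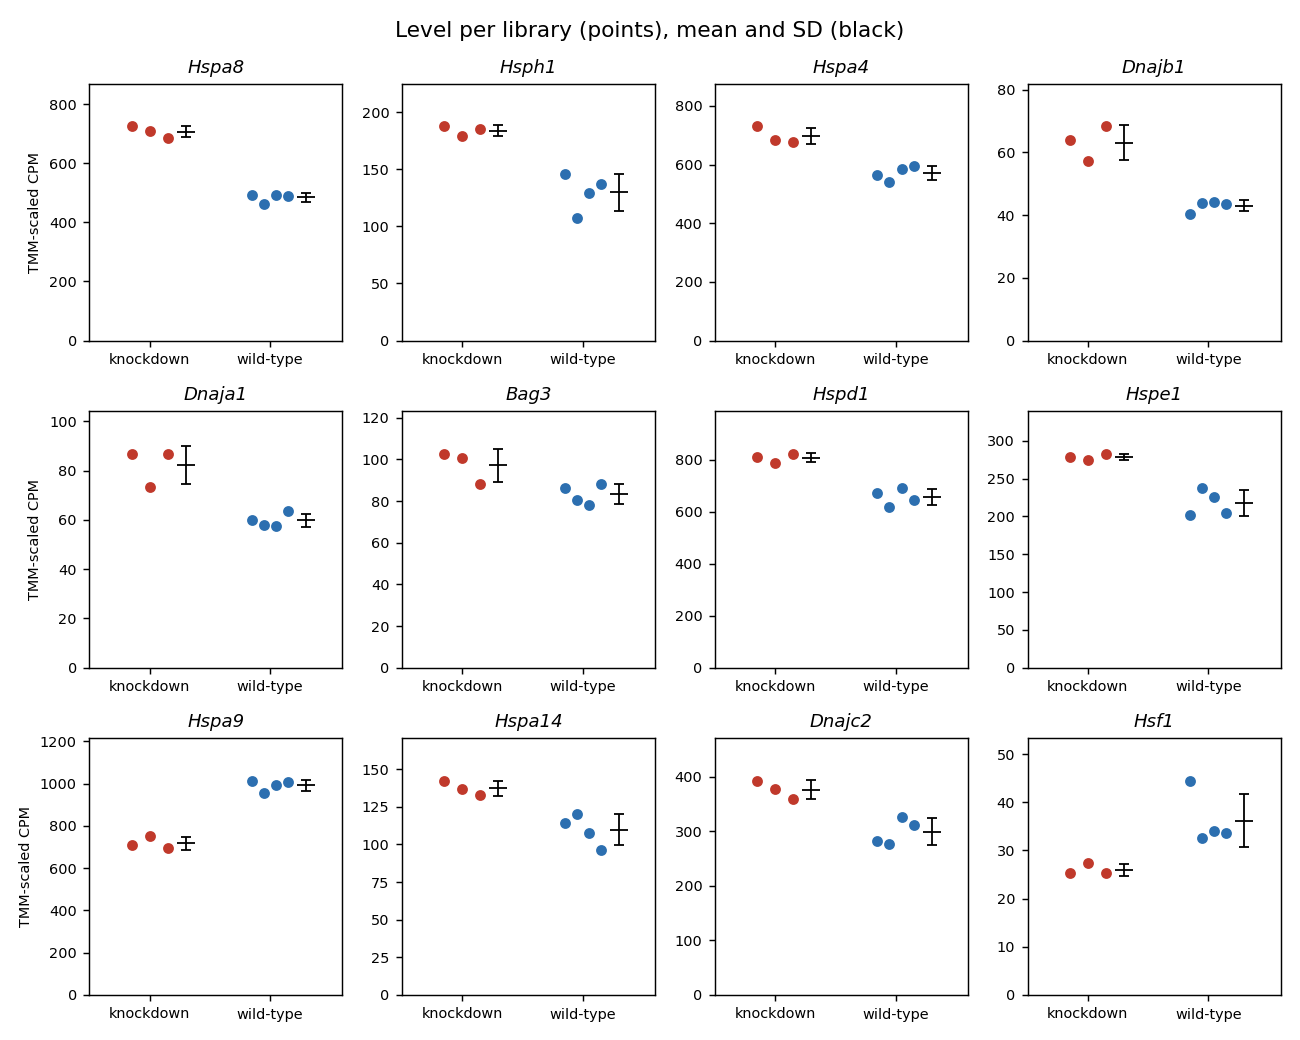
TMM-scaled CPM (vertical axes, from 0) of 12 members in each knockdown library (red, left) and wild-type library (blue, right), with mean and SD in black. The groups are separate for every gene drawn except Bag3; Hspa9 and Hsf1 are lower in knockdown cells, the other 10 higher.

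Because HSF1 binds repeats of a 5-base unit, promoters were searched for 3 such units, written GAANNTTCNNGAA or TTCNNGAANNTTC, which are reverse complements of each other. The windows were 250 bases before to 50 bases after each RefSeq start site on GRCm38.p6, both strands, available for 68 of the 85 members. The motif was in 4 members, 5.88% of those with a window, and in 179 of 27025 genes with a window, 0.662%. The 4 were Hspd1, Hspe1, Hsph1 and Dnajb6, shown because the first 3 rose and the fourth did not pass. Capitals mark the motif, and in the Hspd1 and Hspe1 stretch they mark overlapping matches to both spellings. The first sequence is chr1:55088053-55088082 on the plus strand, between start sites that lie head to head with 215 bases between them; an alternative Hspd1 transcript reads through it. The Hsph1 motif is at chr5:149636288-149636300 on the minus strand, 15 or 36 bases after the start site, depending on which is used. The Dnajb6 motif is at chr5:29735852-29735864 on the plus strand, before its start sites.
Hspd1 and Hspe1: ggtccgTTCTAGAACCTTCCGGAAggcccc
Hsph1: ctgcagaTTCTGGAAAGTTCtcctcag
Dnajb6: gctccgaGAATCTTCCGGAAcgctaga
Of the tested members with a window, the motif was in 3 of 11 that rose, 0 of 7 that fell and 1 of 35 that did not pass. Among all tested genes with a window it was in 51 of 8886, 0.574%. The remaining called members had no window, and the split by direction was not tested. Hspd1 and Hspe1 share one stretch and are not independent in this count. Dnajb6, an anti-aggregation J protein, averaged 59.9 ± 4.97 CPM in knockdown and 52.8 ± 9.75 CPM in wild-type cells (log2 fold change 0.18, SE 0.12, adjusted p = 0.255). A shorter pattern of 2 units, GAANNTTC or TTCNNGAA, which every longer match contains, was in 30.9% of members and 17% of all genes with a window. A match is a run of letters and does not show binding. Only exact matches within the window were counted, so the lack of a match does not show a lack of binding.

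The mitochondrial chaperonin pair rose together. Hspd1, encoding HSP60, had 812, 787 and 823 CPM in knockdown cells, against 671, 618, 692 and 644 CPM in wild-type cells (log2 fold change 0.30, SE 0.059, edgeR adjusted p = 0.000159). Hspe1, encoding its lid HSP10, had 278, 274 and 283 CPM in knockdown cells, against 201, 237, 226 and 204 CPM in wild-type cells (0.36, SE 0.068, adjusted p = 9.82e-05). Both genes were higher in each knockdown library than in any wild-type library. They lie head to head on chromosome 1, where GENCODE M21 gives Hspd1 at 55077835 to 55088243 on the minus strand and Hspe1 at 55088132 to 55091307 on the plus strand. The overlap is 4.24% of Hspd1 and 7.6% of Hspe1 exon length, where reads cannot be assigned without strand.

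Hspa9, encoding the mitochondrial HSP70 (mortalin) that drives protein import and hands clients to HSP60, went the other way. It had 707, 752 and 693 CPM in knockdown cells, against 1013, 954, 992 and 1005 CPM in wild-type cells. The groups were far apart, at 717 ± 31.0 and 991 ± 26.2 CPM, and it had the smallest adjusted p of the members that fell (log2 fold change -0.47, SE 0.058, edgeR adjusted p = 1.22e-07). Dnaja3, a mitochondrial J protein that works with it, averaged 30.7 ± 4.50 CPM in knockdown and 40.5 ± 6.05 CPM in wild-type cells, with overlapping groups (-0.40, SE 0.13, adjusted p = 0.0209). The Dnaja3 call was lost without knockdown replicate 2, wild-type replicate 1 or wild-type replicate 2 (adjusted p = 0.0601 to 0.172).

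Within single libraries the ratio of Hspd1 to Hspa9 counts was 1.15, 1.05 and 1.19 in knockdown cells, against 0.662, 0.648, 0.697 and 0.641 in wild-type cells. The ratio of Hspa8 to Hspa9 was 1.03, 0.945 and 0.991 in knockdown cells, against 0.487, 0.483, 0.498 and 0.488 in wild-type cells. These ratios do not depend on library scaling; they were chosen after the values were seen and are given without a test. The ratio of Hspd1 to Hspe1 averaged 2.90 ± 0.0238 in knockdown and 3.04 ± 0.308 in wild-type cells, with overlapping groups.

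HSP90 transcripts moved little. Hsp90ab1, the constitutive cytosolic HSP90, was the second most abundant tested gene in wild-type cells by CPM. It had 11799, 11019 and 11015 CPM in knockdown cells, against 10624, 11505, 10400.0 and 11284 CPM in wild-type cells, with mixed groups (log2 fold change 0.04, SE 0.054, adjusted p = 0.615). Hsp90aa1, the inducible form, had 1123, 1059 and 1089 CPM in knockdown cells, against 950.0, 963, 977 and 1036 CPM in wild-type cells. That difference was small, although the groups were separate (0.15, SE 0.057, edgeR adjusted p = 0.0427), and the call was lost in 7 of 14 alternative settings (adjusted p = 0.0527 to 0.172), among them leaving out any 1 knockdown library, or wild-type replicate 1 or 3. Per kilobase of transcript, Hsp90ab1 was at 4475 CPM in knockdown and 4346 CPM in wild-type cells. Other abundant chaperones were far lower on that scale, with Hspe1 at 359.8 and 280.6, Hspd1 at 333.3 and 270.8, Hsp90aa1 at 332.3 and 299.2, and Hspa8 at 295.5 and 202.5 CPM per kilobase in knockdown and wild-type cells.

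The pair that forms the ribosome-associated chaperone complex in mammals, which meets new chains at the ribosome, rose. Hspa14, its HSP70, had 142, 137 and 133 CPM in knockdown cells, against 114, 120.3, 108 and 96.2 CPM in wild-type cells (log2 fold change 0.32, SE 0.079, edgeR adjusted p = 0.00187). Dnajc2, its J protein, had 393, 379 and 359 CPM in knockdown cells, against 282, 276, 327 and 313 CPM in wild-type cells (0.33, SE 0.067, adjusted p = 0.000215). Neither gene's groups overlapped. The ratio of Hspa14 to Dnajc2 counts was 0.364 ± 0.00407 in knockdown and 0.369 ± 0.0607 in wild-type cells. Of Hspa14's exon length, 7.91% overlaps Gm45902.

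The CCT subunits, which assemble in equal numbers into the ring that folds actin and tubulin, were unequal. Cct3 had 397, 395 and 423 CPM in knockdown cells, against 356, 348, 352 and 306 CPM in wild-type cells, and was the only CCT gene that rose (log2 fold change 0.25, SE 0.064, edgeR adjusted p = 0.00278). Cct2 had 545, 541 and 532 CPM in knockdown cells, against 656, 654, 649 and 640.1 CPM in wild-type cells, and the groups were separate (-0.27, SE 0.057, adjusted p = 0.000433). Cct5 averaged 458 ± 6.76 CPM in knockdown and 522 ± 19.9 CPM in wild-type cells (-0.19, SE 0.059, adjusted p = 0.0142), and Cct4 237 ± 13.6 and 270.2 ± 13.1 CPM (-0.19, SE 0.066, adjusted p = 0.0299). None of these 4 had overlapping groups. The Cct5 call was lost without knockdown replicate 1 or 2 (adjusted p = 0.0594 to 0.0623), and the Cct4 call without knockdown replicate 1 or 3 or wild-type replicate 1 or 3 (0.0503 to 0.191). Cct7 (-0.14, adjusted p = 0.0728), Cct6a (0.06, 0.562) and Cct8 (-0.01, 0.95) did not pass, nor did Tcp1 (0.04, 0.698), the gene of the first subunit, which the symbol pattern does not take.

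Scaled per kilobase of transcript, the 8 CCT genes summed to 1652, 1652 and 1665 CPM in knockdown cells, against 1770, 1790, 1726 and 1738 CPM in wild-type cells. The share of Cct3 in that sum was 12.4% ± 0.423 in knockdown and 9.8% ± 0.624 in wild-type cells. The share of Cct2 was 16.6% ± 0.276 in knockdown and 18.9% ± 0.23 in wild-type cells, and that of Cct5 14.9% ± 0.16 and 16.0% ± 0.465. The shares of these 3 did not overlap between groups. Within both groups Cct7 had the highest mean level and Tcp1 the lowest, at 72.3 ± 5.27 CPM per kilobase in knockdown and 70.1 ± 2.61 in wild-type cells. Processed pseudogene copies of CCT genes may share reads with them. Exon length also overlaps other genes for Tcp1 (16.9%), Cct6a (15.3%), Cct8 (6.22%) and Cct7 (3.16%), so their levels and the shares are uncertain.

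**Figure D4:**
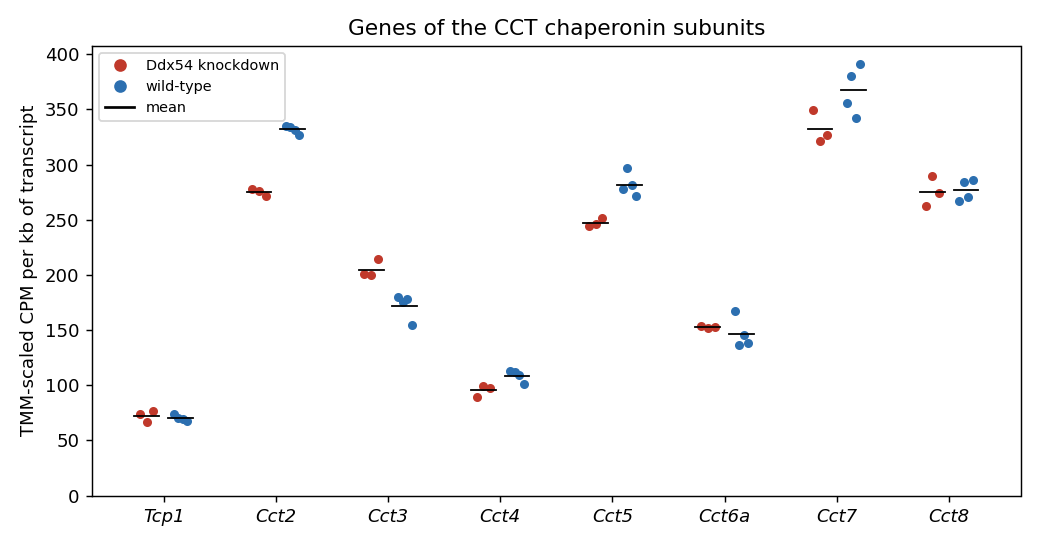
TMM-scaled CPM per kilobase of transcript (vertical axis, from 0) for the 8 CCT genes in knockdown libraries (red, left) and wild-type libraries (blue, right), with the mean as a line. Cct2, Cct4 and Cct5 are lower and Cct3 higher in every knockdown library, while the groups of the other 4 overlap.

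The remaining J proteins showed no common direction. In the C family, 4 of 24 tested genes rose, 2 fell and 18 did not pass, with a median log2 fold change of 0.07. That is 16.7% higher against 14.1% of all tested genes, and 8.33% lower against 15.3%. Dnajc12, a co-chaperone of aromatic amino acid hydroxylases, changed most among the members that passed but was low, with 9.06, 8.57 and 5.98 CPM in knockdown cells, against 3.65, 2.51, 2.74 and 4.91 CPM in wild-type cells (1.18, SE 0.30, edgeR adjusted p = 0.00274). Dnajc9, a histone H3 and H4 co-chaperone, had 64.7, 74.3 and 77.9 CPM in knockdown cells, against 49.8, 51.3, 53.4 and 44.3 CPM in wild-type cells (0.54, SE 0.10, adjusted p = 8.59e-05). Dnajc13, an endosomal trafficking protein, averaged 107 ± 8.78 CPM in knockdown and 78.9 ± 9.75 CPM in wild-type cells (0.44, SE 0.091, adjusted p = 0.00034). All 3 were separate between groups.

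The C family genes that fell were Dnajc1 and Dnajc18. Dnajc1, a J protein of the endoplasmic reticulum membrane, averaged 102 ± 5.37 CPM in knockdown and 123 ± 5.74 CPM in wild-type cells, with separate groups (log2 fold change -0.27, SE 0.077, edgeR adjusted p = 0.00654; 0.062 without knockdown replicate 2). Dnajc18 averaged 17.7 ± 3.79 CPM in knockdown and 24.0 ± 2.37 CPM in wild-type cells, with overlapping groups (-0.44, SE 0.16, adjusted p = 0.0371). Its call was lost without knockdown replicate 2 or 3 or wild-type replicate 1 (adjusted p = 0.0992 to 0.229). Dnajb1 was the only one of 8 tested B family genes to pass. Dnajc28 had the lowest fold change of any member and did not pass, on 0.591 ± 0.783 CPM in knockdown and 2.12 ± 1.42 CPM in wild-type cells (-1.82, SE 0.80, adjusted p = 0.0862). Without knockdown replicate 1, its highest knockdown library, Dnajc28 was at -3.80 (edgeR adjusted p = 0.0101). Dnajc21, a ribosome biogenesis factor, was separate between groups without passing, and Dnajc4 did not pass either (-0.37, adjusted p = 0.118).

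Of the 8 small heat shock protein genes, 5 had too few counts to be tested. Hspb1, elsewhere a major stress-induced small chaperone, had 0.0596, 0.434 and 0 CPM in knockdown cells, against 0, 0.339, 1.5 and 0.651 CPM in wild-type cells, 48 counts in all, and was not tested. Hspb8, the partner of BAG3, averaged 79.0 ± 7.03 CPM in knockdown and 91.3 ± 7.63 CPM in wild-type cells (log2 fold change -0.21, SE 0.089, adjusted p = 0.0766). Hspb11, which carries the family name but encodes the intraflagellar transport protein IFT25, was the only one of 3 tested Hspb genes to pass. It had 16.0, 19.3 and 17.7 CPM in knockdown cells, against 29.8, 38.3, 37.7 and 32.1 CPM in wild-type cells (-0.96, SE 0.14, edgeR adjusted p = 2.88e-06). Hspa12b, a distant HSP70 relative known from endothelial cells, had 4.23, 4.99 and 3.90 CPM in knockdown cells, against 8.61, 9.44, 8.10 and 8.17 CPM in wild-type cells (-0.97, SE 0.26, adjusted p = 0.00423). The 7 endothelial markers summed to 0.705 to 1.19 CPM in knockdown and 1.07 to 3.19 CPM in wild-type cells, with Cdh5, Tek and Emcn at 0 in every library. Both genes were lower in each knockdown library than in any wild-type library.

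Of the 17 members not tested, 6 had no count in any library: Hspb2, Hspb3, Hspb9, Dnajb8, Dnajb13 and Cct8l1. The other 11 had 1 to 48 counts over the 7 libraries.

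Outside the symbol pattern, 46 further chaperone genes formed a companion list, of which 5 rose, 9 fell and 32 did not pass, and log2 fold changes ran over -0.63 to 0.74 around a median of -0.002. The called share was 30.4%, near the 29.4% of all tested genes, with 10.9% higher against 14.1% and 19.6% lower against 15.3%. Without knockdown replicate 1 the counts were 3 higher and 5 lower, and without knockdown replicate 2 the count higher was 3. The 5 that rose were Cdc37l1, Unc45a, Ahsa1, Chordc1 and Ppid. Some other genes of HSP90 partners on the list did not pass, among them Stip1 (0.11), Ptges3 (0.09), Fkbp4 (0.07), Sugt1 (-0.05) and Stub1 (-0.53). Ahsa1, the activator of the HSP90 ATPase, averaged 102 ± 12.4 CPM in knockdown and 75.1 ± 4.60 CPM in wild-type cells (log2 fold change 0.44, SE 0.089, edgeR adjusted p = 0.000219). Cdc37l1, a relative of the kinase co-chaperone CDC37, averaged 91.9 ± 6.94 CPM in knockdown and 61.5 ± 6.84 CPM in wild-type cells (0.58, SE 0.095, adjusted p = 1.24e-05). Unc45a, a myosin chaperone, averaged 16.7 ± 2.34 CPM in knockdown and 11.2 ± 1.31 CPM in wild-type cells (0.57, SE 0.19, adjusted p = 0.0178), and Chordc1, an HSP90-binding protein, 128 ± 6.70 and 105 ± 10.1 CPM (0.28, SE 0.082, adjusted p = 0.00803). Cdc37 itself fell (-0.18, adjusted p = 0.029), as did Fkbp5, an immunophilin of steroid receptor complexes (-0.27, adjusted p = 0.0238). Leaving out knockdown replicate 1 lost the calls of Chordc1, Ppid, Cdc37 and Fkbp5. Without knockdown replicate 2 those of Unc45a, Ppid and Cdc37 were lost, without knockdown replicate 3 that of Unc45a, and without wild-type replicate 1 or 2 that of Cdc37.

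Among the companions that fell were genes of mitochondrial protein quality control. Lonp1, the matrix protease, averaged 148 ± 8.10 CPM in knockdown and 228 ± 19.2 CPM in wild-type cells (log2 fold change -0.63, SE 0.073, edgeR adjusted p = 3.83e-08). Trap1, the mitochondrial HSP90, averaged 64.5 ± 4.92 CPM in knockdown and 83.3 ± 4.93 CPM in wild-type cells (-0.37, SE 0.091, adjusted p = 0.00203). Grpel2, an exchange factor for mitochondrial HSP70, averaged 15.8 ± 1.61 CPM in knockdown and 21.8 ± 4.39 CPM in wild-type cells, with overlapping groups (-0.46, SE 0.17, adjusted p = 0.0408), and Clpp, the second matrix protease, fell by 0.25 on the log2 scale (adjusted p = 0.0415). Calls for Grpel2 and Clpp were each lost in 6 of 14 alternative settings: for Grpel2 limma-voom and leaving out any 1 knockdown library or wild-type replicate 2 or 3, for Clpp, among others, leaving out knockdown replicate 1 or 2 or wild-type replicate 1, 2 or 4. Grouping these by compartment was done after their values were seen, and Grpel1 and Clpb, of the same compartment, did not pass. Serpinh1, the collagen chaperone HSP47, averaged 191 ± 16.7 CPM in knockdown and 276 ± 23.4 CPM in wild-type cells (-0.53, SE 0.074, adjusted p = 9.35e-07). Of the 6 prefoldin genes, whose complex delivers actin and tubulin to CCT, 2 fell, beside 15.3% of all tested genes. The other 4 did not pass (Pfdn4 at 0.23, Pfdn6 at 0.12, Vbp1 at 0.05 and Pfdn1 at -0.12). Pfdn2 fell (-0.37, adjusted p = 0.000513; 27.6% of its exon length overlaps Klhdc9) and so did Pfdn5 (-0.23, adjusted p = 0.0352), which without knockdown replicate 3 was at -0.14 (adjusted p = 0.306) and did not pass with wild-type replicate 1 or 3 left out either.

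**Figure D5:**
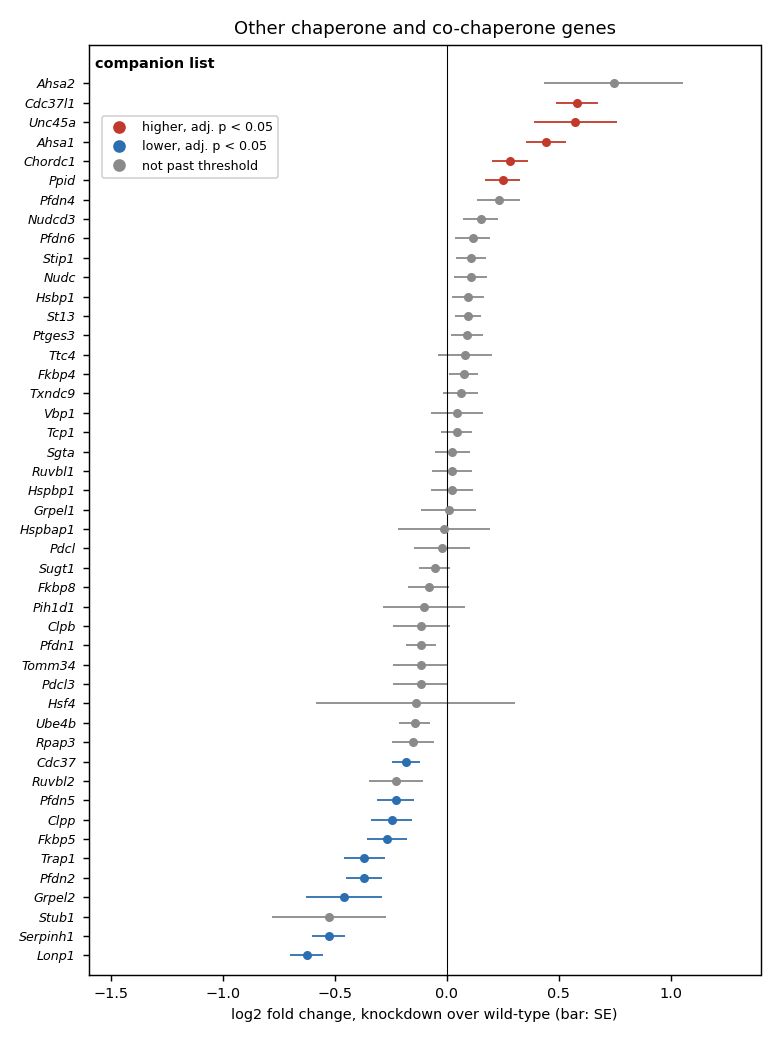
Log2 fold change (horizontal axis, knockdown over wild-type) of the 46 companion genes, ordered by fold change; points are edgeR estimates and bars 1 SE, red higher and blue lower at an adjusted p under 0.05. Of the genes past the threshold, Cdc37l1 is the highest at 0.58 and Lonp1 the lowest at -0.63; Ahsa2, at 0.74, lies higher but did not pass.

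The endoplasmic reticulum chaperones set aside from the members, with Hsp90b1, all rose in knockdown cells: Hspa5 by 0.20, Hsp90b1 by 0.21, Dnajb11 by 0.39 and Dnajc3 by 0.49 on the log2 scale (edgeR adjusted p = 0.00587, 0.0038, 0.00199 and 6.65e-06). Some genes of that compartment were kept as members, and those named here did not pass as higher. Dnajc1 fell (-0.27), and Dnajb9 (-0.41), Dnajc10 (0.08), Hspa13 (0.01), Dnajb12 (0.21) and Dnajc25 (0.25) did not pass. The estimates for Dnajb12 and Dnajc25 were near those of Hspa5 and Hsp90b1. Among all tested genes, 14.1% rose. Of the members, 19 of the 26 calls held in all 14 alternative settings. The count that fell was 11, and 7 without knockdown replicate 2; the count that rose was 13 to 15 in every setting. Of the 5 nearest outside the threshold, Hspb8 passed without knockdown replicate 1 or wild-type replicate 3, Cct7 and Dnajc21 without wild-type replicate 3, Dnajc4 without knockdown replicate 1, and Dnajc28 without knockdown replicate 1 or wild-type replicate 1.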

How the data were processed

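The authors deposited one table of raw read counts per gene symbol. Trimmomatic, STAR, HTSeq and the build mm10 are named by the submitters' processing notes, with no version. The annotation, strand setting and rule for multi-mapping reads are in none of the sources used here. The table had 0 further sample columns. Counts were tested with edgeR 4.0.16 (R 4.3.3): filterByExpr on the group (10 counts minimum, 15 in total), TMM factors, robust quasi-likelihood fit, 3 knockdown against 4 wild-type libraries, no covariate, two-sided, Benjamini-Hochberg adjustment over 11594 genes, threshold 0.05. Log2 fold changes are knockdown over wild-type. Each SE was derived from the fold change and its F statistic and is approximate. For Ddx54 an exact two-sided permutation test gave p = 0.0286, the smallest that 35 splits allow. Levels per kilobase used the longest principal transcript in GENCODE M21 (GRCm38, another name for mm10), and for Cct6a the longest basic one. Promoter sequences came from RefSeq, GRCm38.p6. No 2 libraries were duplicates. The procedure was checked on simulated counts.

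The members and lists were chosen with earlier results of these data known. Genes were named by a rule: inducible chaperones, heat shock factors, CCT genes, members past the threshold, the 5 nearest outside it, members with no count, and companion genes past it. Alternatives were upper-quartile or RLE factors, every gene with a count, at least 50 counts in 3 libraries, DESeq2 1.42.0, limma-voom 3.58.1, a replicate block, and leaving out each library. The single-cell data were not analysed here.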

Additional observations from a re-analysis of the deposited data

Results flagged for a closer look

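In 3 genes, 1 of the 4 wild-type libraries stood apart from the other 3 by Dixon's criterion; 59 quantities were examined, and chance gives about 3. Hspa8 was at 461.2 CPM in wild-type replicate 2, with the others at 490.8 to 494.2 CPM, and its log2 fold change was 0.52 without that library. Hsf1 was at 44.5 CPM in wild-type replicate 1, with the others at 32.6 to 34.1 CPM, and its log2 fold change was -0.37 without that library. Cct3 was at 306.2 CPM in wild-type replicate 4, with the others at 347.7 to 355.6 CPM, and its log2 fold change was 0.20 without that library.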

How the results depend on the processing

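Over the 14 alternatives, 19 of 26 member calls and 6 of 14 companion calls held throughout; Bag3, Hsp90aa1, Cct4, Cct5, Dnaja3, Dnajc1 and Dnajc18 were the members that lost the call somewhere. Leaving out 1 library gave 13 to 15 members higher and 7 to 13 lower (7 without knockdown replicate 2), and 3 to 7 companions higher and 5 to 8 lower (3 higher without knockdown replicate 1 or 2, and 5 lower without knockdown replicate 1). No pairing by replicate number was seen: over all tested genes, deviations of same-numbered libraries correlated at -0.0344, -0.0275 and -0.00627. An effect that such libraries share in part of the genes could go unseen there. With the replicate block, 14 members rose and 11 fell, 3 companions rose and 6 fell, and Cct8 was at 0.0076; the calls of Bag3, Cdc37, Chordc1, Fkbp5, Unc45a and Clpp were lost. Leaving out 1 library, genes near 0 changed sign: Hspa1b ranged over -0.21 to 0.42, Hspa4l over -0.116 to 0.0554 and Cct8 over -0.0468 to 0.0262; the cause was not tested. Ddx54 stayed between -0.93 and -0.83, and no scaling changed the direction of a called member. Depth limits genes at a few CPM, such as Hspa1a, Hspb1 and Dnajc28.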
